A study of Mus musculus with 12 samples.

Results

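This account follows 10 genes of the LIF, STAT3 and ERK feedback pathways in mouse pluripotent cells sorted by mitochondrial membrane potential. They were picked by name, with earlier results of these data known, and all 10 of 10 matched a probe set, of 25206 probe sets in the table. The members are the receptor chains Lifr and Il6st, the transcription factor Stat3, the STAT3-induced genes Socs3, Pim1 and Pim3, and the ERK feedback genes Spry2, Spry4, Dusp6 and Etv5.

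The 12 samples were female C57BL/6 cells that took up the dye TMRM, which accumulates in mitochondria according to their membrane potential, and were then flow-sorted on it. The groups, of 3 arrays each, were iPSC high, iPSC low, ESC high and ESC low, where iPSC are induced pluripotent stem cells, ESC are embryonic stem cells, and high and low name the sorted fraction. All cells had grown without serum or feeder cells in 2iLIF medium. The labels number the arrays of every group 2, 3 and 4. They name no cell line and no separate cultures, so a difference between cell types cannot be told apart from one between lines, and p-values measure the spread between these arrays, which may be technical. Values are log2 expression levels from RMA, the standard summary of Affymetrix arrays. They carry no detection call and are compared only within a gene, apart from a check of marker genes against the array median.

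Leukaemia inhibitory factor, LIF, binds Lifr together with the shared chain Il6st (gp130), and the JAK kinases bound to these chains then activate Stat3, which helps keep mouse pluripotent cells undifferentiated. STAT3 turns on Socs3, which shuts off the receptor complex, and Pim kinases. FGF signalling through ERK turns on its own brakes, the Sprouty proteins Spry2 and Spry4 and the ERK phosphatase Dusp6, and the ETS factor Etv5. By its usual recipe 2iLIF holds LIF and an inhibitor of MEK, the kinase that activates ERK, so the medium is meant to stimulate the first route and hold down the second.

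The promoters of 3 members are printed because Pim3 and Spry2 were the members that differed between the cell types, and Socs3 was the member with a STAT motif. Each runs 5′ to 3′ over 250 bases before to 50 bases after the RefSeq start on GRCm38.p6, and capitals mark the STAT motif. The windows are chr15:88861944-88862243 on the plus strand for Pim3, chr14:105896770-105897069 on the minus strand for Spry2 and chr11:117969317-117969616 on the minus strand for Socs3.
Pim3: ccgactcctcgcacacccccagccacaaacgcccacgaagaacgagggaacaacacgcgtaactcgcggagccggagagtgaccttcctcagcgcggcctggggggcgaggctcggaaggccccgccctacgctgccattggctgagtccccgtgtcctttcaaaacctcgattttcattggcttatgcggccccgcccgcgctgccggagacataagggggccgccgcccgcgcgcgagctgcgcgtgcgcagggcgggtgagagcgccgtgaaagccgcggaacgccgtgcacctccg
Spry2: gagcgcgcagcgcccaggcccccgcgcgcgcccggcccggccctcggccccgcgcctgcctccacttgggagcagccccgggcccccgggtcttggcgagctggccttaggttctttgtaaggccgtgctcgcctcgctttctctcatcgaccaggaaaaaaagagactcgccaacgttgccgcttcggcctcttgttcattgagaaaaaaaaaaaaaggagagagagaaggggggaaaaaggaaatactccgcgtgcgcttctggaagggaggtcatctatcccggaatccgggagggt
Socs3: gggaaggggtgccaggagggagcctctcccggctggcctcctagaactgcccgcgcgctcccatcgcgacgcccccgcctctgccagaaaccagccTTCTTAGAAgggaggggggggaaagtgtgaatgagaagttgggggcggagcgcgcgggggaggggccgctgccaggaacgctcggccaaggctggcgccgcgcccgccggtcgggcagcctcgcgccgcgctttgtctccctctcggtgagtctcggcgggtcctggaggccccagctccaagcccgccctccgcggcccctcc
Of the members, 9 had a promoter window, 12 windows in all. The letters TTCNNNGAA, which read the same on both strands, occurred in 1 of the 9 members, as TTCTTAGAA with its first base at -154 in Socs3, and so in 1 of the 12 member windows, a share equal to the 8.3% of all 32851 windows that held it. The ETS motif CCGGAAG, sought on both strands, occurred in 0 of the 12 member windows, against 8.86% of all windows.

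The arrays were alike. Array medians lay between 3.51 and 3.61, and arrays correlated across probe sets at 0.991 to 0.994 within groups and at 0.986 to 0.994 between groups. All 10 pluripotency markers read above the array median on every array, including Nanog at 10.43 to 10.66, Sox2 at 8.63 to 9.10 and Pou5f1 at 5.90 to 6.26. Of the 8 fibroblast markers, 4 or 5 per group read below the array median on all its arrays. Others read above it on all arrays of a group, 2 in iPSC high, 3 in iPSC low, 2 in ESC high and 1 in ESC low. The iPSC minus ESC log2 difference was 0.44 ± 0.14 for Thy1 (SE, limma adjusted p = 0.126). It was -0.14 ± 0.13 for Col1a1 (SE, limma adjusted p = 0.698). Of the 8 fibroblast markers, 3 lay above 0 and 5 below, and 0 passed an adjusted p under 0.05.

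Pim3 and Spry2 were higher in iPSC than in ESC. Pim3, a serine/threonine kinase and STAT3 target, read 5.88, 5.90 and 6.11 in iPSC high, 6.07, 5.89 and 6.12 in iPSC low, 5.62, 5.60 and 5.55 in ESC high and 5.44, 5.65 and 5.53 in ESC low (replicates 2, 3 and 4 in each). Every iPSC array lay above every ESC array, while the fractions overlapped within each cell type. Over both fractions Pim3 averaged 6.00 ± 0.12 in iPSC and 5.56 ± 0.07 in ESC (SD, n = 6 arrays each). The difference was 0.43 ± 0.07 on the log2 scale (SE), 1.35-fold with a 95% interval of 1.21 to 1.499, and it passed limma's test (adjusted p = 0.00699). A predicted gene, Gm33049, overlaps the start of Pim3 in the RefSeq gene table, and whether its transcripts reach the Pim3 probes was not tested.

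Spry2, a Sprouty inhibitor of receptor tyrosine kinase signalling, read 7.38, 7.32 and 7.35 in iPSC high, 7.53, 7.25 and 7.46 in iPSC low, 7.08, 7.04 and 7.04 in ESC high and 7.06, 6.83 and 6.96 in ESC low. Again all iPSC arrays lay above all ESC arrays and the fractions overlapped. The means were 7.38 ± 0.10 in iPSC and 7.003 ± 0.09 in ESC (SD, n = 6 arrays each). Spry2 was 0.38 ± 0.07 higher in iPSC, 1.30-fold with a 95% interval of 1.17 to 1.44 (limma adjusted p = 0.0111). For both genes the groups ranked iPSC low, iPSC high, ESC high and ESC low, and only the step between the cell types was free of overlap.

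These were 2 of 10 members called higher and 0 called lower in iPSC, against 0.916% of all probe sets called higher and 1.96% called lower. A call means a Benjamini-Hochberg adjusted p under 0.05 over the whole table. They were also the 2 members whose iPSC and ESC arrays did not overlap, a pattern that 2.75% of probe sets showed in either direction. In all, 8 of 10 members had a difference above 0, against 53.3% of probe sets, and the median over members was 0.28, against 0.01 over all probe sets. At an unadjusted p under 0.05 there were 7 of 10 members, against 14.7% of probe sets. All members were among the 12603 brighter probe sets, those with a mean above the table's median. Of these, 2748 had an unadjusted p under 0.05, 181 were called higher and 468 called lower. Both calls remained in every alternative fit that used both fractions, but in the low arrays alone Pim3 (0.49, limma adjusted p = 0.0640) and Spry2 (0.46, limma adjusted p = 0.0667) were not called. In the high arrays alone they stood at 0.37 (limma adjusted p = 0.171) and 0.30 (limma adjusted p = 0.290).

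**Figure D1:**
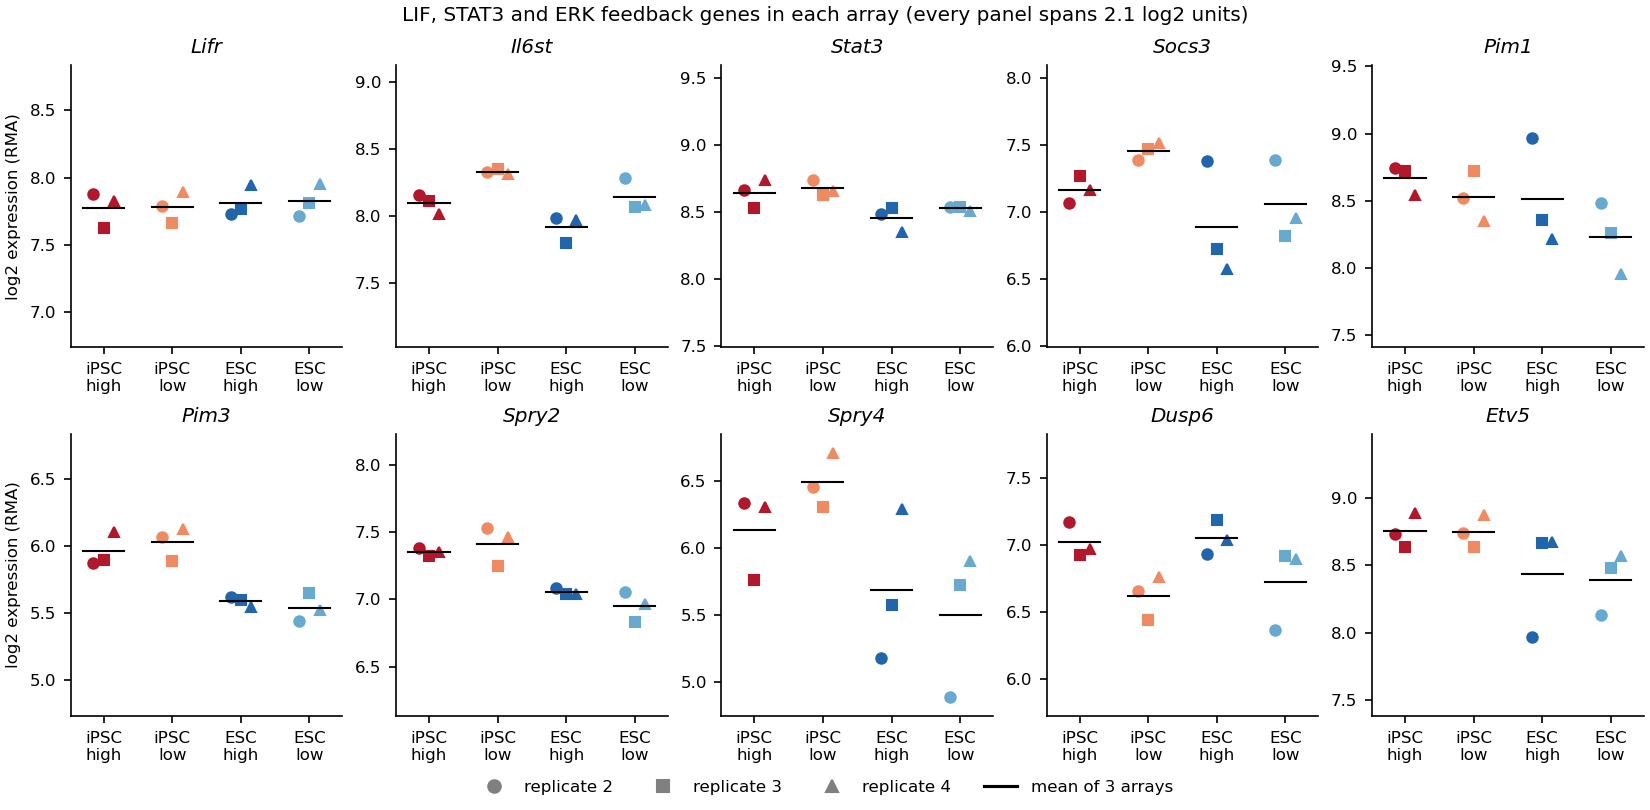
Each panel shows 1 gene, with log2 expression on the vertical axis and the 4 groups along the horizontal axis; points are arrays, shaped by replicate number, and bars are means of 3 arrays. Pim3 and Spry2 separate all 6 iPSC arrays from all 6 ESC arrays, Il6st and Dusp6 separate the fractions within each cell type, and Socs3, Pim1, Spry4 and Etv5 spread widely among ESC arrays.

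The remaining members were not called between the cell types. Spry4, the other Sprouty gene of the set, read 6.33, 5.76 and 6.30 in iPSC high, 6.45, 6.30 and 6.71 in iPSC low, 5.18, 5.57 and 6.29 in ESC high and 4.89, 5.72 and 5.90 in ESC low. ESC high replicate 4 and ESC low replicate 4 reached into the iPSC range and iPSC high replicate 3 into the ESC range. Its difference was 0.72 ± 0.21 (limma adjusted p = 0.0957), numerically above those of Pim3 and Spry2 but with a wider spread, and it was called without ESC high replicate 4 (0.87, limma adjusted p = 0.0392). Without both ESC arrays numbered 2 it was 0.44 and not called (limma adjusted p = 0.223). Etv5, an ETS transcription factor, read 8.73, 8.64 and 8.89 in iPSC high, 8.74, 8.64 and 8.88 in iPSC low, 7.97, 8.67 and 8.67 in ESC high and 8.13, 8.48 and 8.57 in ESC low. The difference was 0.34 ± 0.13 (limma adjusted p = 0.213), and the 2 lowest arrays were the ESC arrays numbered 2. Without ESC high replicate 2 it was 0.22 and without both of them 0.16.

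Socs3, the feedback inhibitor of gp130 receptors, read 7.07, 7.27 and 7.16 in iPSC high, 7.39, 7.47 and 7.52 in iPSC low, 7.38, 6.73 and 6.57 in ESC high and 7.39, 6.82 and 6.96 in ESC low. The 2 ESC arrays numbered 2 lay within the iPSC range and the other 4 ESC arrays below it. Its iPSC minus ESC difference was 0.34 ± 0.13 (limma adjusted p = 0.251). Socs3 was called higher in iPSC without ESC high replicate 2 (0.46, limma adjusted p = 0.0378) and without both ESC arrays numbered 2 (0.54, limma adjusted p = 0.00774), an alternative chosen after seeing the data.

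Pim1, the second Pim kinase of the set, read 8.74, 8.72 and 8.54 in iPSC high, 8.52, 8.72 and 8.35 in iPSC low, 8.97, 8.36 and 8.21 in ESC high and 8.48, 8.26 and 7.95 in ESC low. The highest and the lowest array were both ESC, and the difference was 0.23 ± 0.13 (limma adjusted p = 0.484), or 0.34 without ESC high replicate 2. Stat3 itself read 8.66, 8.53 and 8.73 in iPSC high, 8.74, 8.63 and 8.66 in iPSC low, 8.49, 8.53 and 8.35 in ESC high and 8.53, 8.54 and 8.50 in ESC low. The cell types overlapped through 1 iPSC array, iPSC high replicate 3, and the difference was 0.17 ± 0.06 (limma adjusted p = 0.215). Il6st stood at 0.18 ± 0.07 (limma adjusted p = 0.200), Dusp6 at -0.07 ± 0.11 (limma adjusted p = 0.839) and Lifr at -0.04 ± 0.08 (limma adjusted p = 0.877).

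Between the high and low fractions 0 of 10 members were called in iPSC, in ESC or over both cell types, against 0.547%, 0.357% and 2.50% of all probe sets. At an unadjusted p under 0.05 there were 2 members in each of these comparisons, Il6st and Dusp6 each time, against 12.7%, 8.29% and 15.6% of probe sets. Over both cell types 4 members lay above 0 and 6 below, with a median of -0.01, against 50.9% of probe sets above 0 and a median of 0.00. Of the brighter probe sets, 42.7% lay above 0, with a median of -0.02. Because the RNA is from sorted populations, fewer cells of one kind and less RNA per cell cannot be told apart.

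Dusp6, the cytoplasmic phosphatase that dephosphorylates ERK, read 7.17, 6.92 and 6.97 in iPSC high, 6.66, 6.44 and 6.76 in iPSC low, 6.94, 7.19 and 7.04 in ESC high and 6.37, 6.92 and 6.90 in ESC low. In each cell type all high arrays lay above all low arrays, by a narrow margin in ESC. Over both cell types the high minus low difference was 0.37 ± 0.11, 1.29-fold with a 95% interval of 1.10 to 1.51, which missed the threshold (limma adjusted p = 0.103). With the replicate number as a block, which the arrays bear out within a cell type, Dusp6 was called (limma adjusted p = 0.0437), against 3.73% of probe sets called in that fit. The difference was 0.40 ± 0.15 in iPSC and 0.33 ± 0.15 in ESC, and the ESC value was 0.15 without ESC low replicate 2. The 2 differences did not pass a test against each other (0.07 ± 0.21, 95% interval -0.39 to 0.53, limma adjusted p = 0.9998).

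Il6st, the gp130 chain shared by receptors of the LIF family, went the other way. It read 8.16, 8.11 and 8.02 in iPSC high, 8.33, 8.35 and 8.32 in iPSC low, 7.98, 7.80 and 7.97 in ESC high and 8.29, 8.07 and 8.09 in ESC low. All high arrays lay below all low arrays in both cell types, as for 1.83% of probe sets, while the arrangement seen for Dusp6 held for 1.98%. The difference over both cell types was -0.23 ± 0.07, 0.851-fold with a 95% interval of 0.770 to 0.940, and it missed the threshold (limma adjusted p = 0.0958). It was called when the variance was allowed to depend on the level (limma adjusted p = 0.0375). The groups ranked iPSC low, ESC low, iPSC high and ESC high, with overlap only between ESC low and iPSC high. The iPSC and ESC differences were nearly equal in value, -0.24 ± 0.09 and -0.23 ± 0.09.

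Lifr, the LIF-binding partner of gp130, read 7.88, 7.62 and 7.82 in iPSC high, 7.78, 7.66 and 7.89 in iPSC low, 7.73, 7.76 and 7.94 in ESC high and 7.72, 7.81 and 7.95 in ESC low. All groups overlapped, and the high minus low difference was -0.01 ± 0.08 with a 95% interval of -0.18 to 0.16. Socs3 lay lower in every iPSC high array than in every iPSC low array, as did 9.57% of probe sets. It stood at -0.29 ± 0.19 in iPSC and -0.17 ± 0.19 in ESC, and its difference over both cell types was -0.23 ± 0.13 (limma adjusted p = 0.455, and 0.124 with the replicate block). The high array lay below the low array of equal number in all 6 pairs, by -0.01 to -0.38, and the value was -0.35 without ESC high replicate 2, against -0.15 when ESC low replicate 2 or ESC high replicate 4 was left out. Pim1 stood at 0.21 ± 0.13 (limma adjusted p = 0.494, and 0.159 with the replicate block), above 0 in all 6 pairs, by 0.01 to 0.48. Without ESC high replicate 2 its value over both cell types was 0.10 and that in ESC 0.05, against 0.28 in ESC with all arrays. Stat3 (-0.05 ± 0.06), Pim3 (-0.01 ± 0.07), Spry2 (0.02 ± 0.07), Spry4 (-0.09 ± 0.21) and Etv5 (0.02 ± 0.13) had intervals that included 0, the widest being -0.54 to 0.36 for Spry4. No member was called for a difference between the iPSC and ESC contrasts of the fractions, and 0 reached an unadjusted p under 0.05, against 4.36% of probe sets. That test called 0% of the table.

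**Figure D2:**
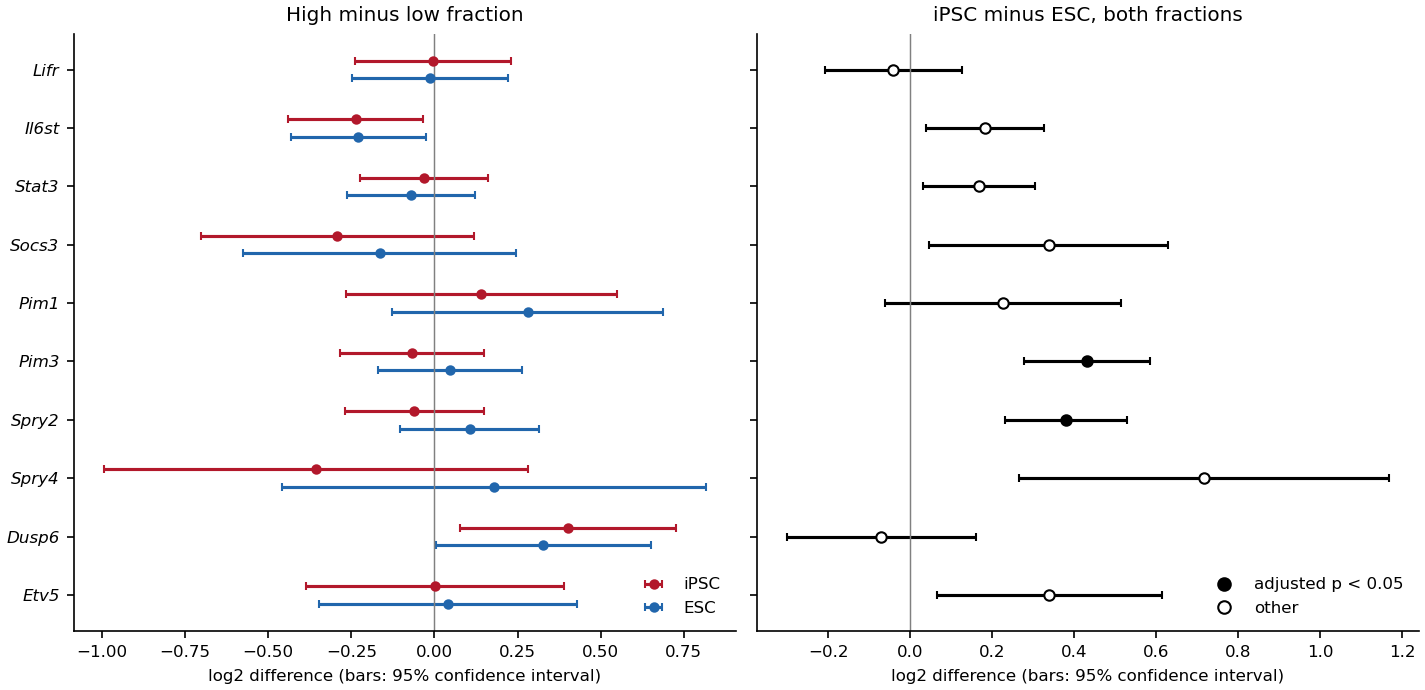
The left panel plots the high minus low log2 difference of each member in iPSC (red) and ESC (blue), and the right panel the iPSC minus ESC difference over both fractions; bars are 95% confidence intervals. On the left only Il6st, below 0, and Dusp6, above 0, have intervals clear of 0 in both cell types, and neither was called; on the right the filled points Pim3 and Spry2 passed the threshold.

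Genes of cell division moved with the fractions. The list was known to do so from earlier results of these data, so the count below is no separate test. Of 11 G2 and mitosis genes measured, such as Aurka, Ube2c and Nusap1, 10 were called higher in the high fraction over both cell types. Among all probe sets the share was 1.60%. The median difference over the 11 was 0.68. Their summed log2 level was 93.8 to 94.6 in iPSC high, 87.4 to 87.9 in iPSC low, 92.2 to 94.2 in ESC high and 86.2 to 87.0 in ESC low. The part of this shift in the values of Dusp6 and Il6st was not tested. The blood markers summed to 16.6 to 17.4 in iPSC high, 16.1 to 16.5 in iPSC low, 16.4 to 16.5 in ESC high and 15.8 in every ESC low array. Of the 4 measured, 1 was called higher, against the same 1.60% of all probe sets. It was Cd68, a lysosomal protein of macrophages, which rose by 0.82 ± 0.09 in the high fraction (limma adjusted p = 0.000828). Ptprc (-0.05 ± 0.07), Itgam (-0.14 ± 0.07) and Csf1r (0.04 ± 0.07) were not called, so the list lay 2 above 0 and 2 below, with a median of -0.01. The defining leukocyte marker Ptprc read 1.5 to 1.98 on all arrays, below every array median. Between the cell types 0 of the 11 G2 and mitosis genes were called. Of the pluripotency markers 1 of 10 was called higher in iPSC, against 0.916% of all probe sets. It was Klf2, a transcription factor of the naive pluripotent state (0.39 ± 0.09, limma adjusted p = 0.0369). The Klf2 call held in 2 of 12 fits that left out 1 array (limma adjusted p up to 0.101) and was lost with the replicate number as a random block (limma adjusted p = 0.0609). Esrrb, another naive pluripotency factor, named because its arrays did not overlap, read 7.38 to 7.60 in iPSC and 7.63 to 7.78 in ESC (-0.22 ± 0.06, limma adjusted p = 0.0957, not called).

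The members also differed in how they varied between arrays of 1 group. Spry4 had a residual SD of 0.43, above that of 98.0% of the brighter probe sets, those with a mean above the table's median. The figures were 0.27 and 87.4% for Socs3, 0.26 and 86.9% for Pim1, 0.25 and 84.4% for Etv5 and 0.20 and 71.1% for Dusp6. Stat3, at 0.08 and 8.75%, Il6st, at 0.09 and 14.7%, Spry2, at 0.10 and 18.2%, and Pim3, at 0.10 and 23.0%, varied little. Lifr lay between, at 0.12 and 33.8%.

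Much of the spread in ESC ran with the replicate number. The ESC high and ESC low arrays numbered 2 stood together outside the other 4 ESC arrays for 6 of 10 members, an arrangement noticed after the values were seen and shown by 19.4% of all probe sets. On the STAT3 side Socs3 was 0.62 and Pim1 0.53 above the mean of the other 4. Pim3 (-0.05), Stat3 (0.03) and Il6st (0.16), of the same side, overlapped the other arrays. On the ERK side Spry4 was -0.84 and Etv5 -0.55 against the same mean. Spry2 (0.10) lay above and Lifr (-0.14) below by less, and Dusp6, at -0.36, overlapped the other arrays. The median absolute difference of this pair was 0.26 over the members and 0.11 over all probe sets.

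The ESC pair numbered 4 deviated in other members. Relative to the remaining ESC arrays, Spry4 stood at 0.76, Lifr at 0.19 and Pim1 at -0.43, each without overlap. In iPSC the pair numbered 3 lay below the other 4 arrays for 4 of 10 members, Lifr, Stat3, Spry2 and Etv5, as did 6.38% of probe sets, by 0.12 to 0.21. The pair numbered 4 lay above for Pim3 (0.18) and Etv5 (0.20), and the pairs iPSC 2 and ESC 3 stood outside for 0 members. What the numbers mark in culture is not given in the sources used here, so a culture, a sort day and an array run cannot be told apart.

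**Figure D3:**
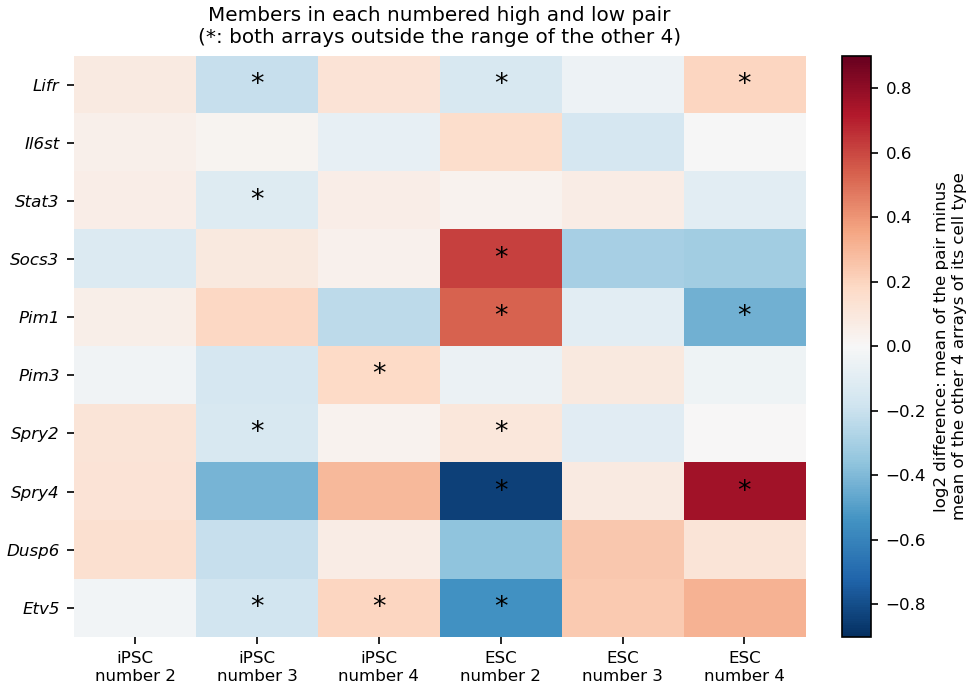
Rows are members and columns the pairs of high and low arrays with equal number in each cell type; colour is the mean of the pair minus the mean of the other 4 arrays of that cell type, in log2 units, and asterisks mark pairs wholly outside the other 4. The ESC pair numbered 2 has the deepest colours, red for Socs3 and Pim1 and blue for Spry4 and Etv5.

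Of 7 LIF family ligands measured, 2 rose in the high fraction over both cell types and 0 fell, with a median of 0.08, against 1.60% of all probe sets called higher and 0.905% called lower. Lif, Osm, Clcf1, Ctf1 and Il6 were not called, with values of -0.20 to 0.30. Cntf, a neurotrophic cytokine that signals through gp130 and Lifr, read 5.01, 4.79 and 4.50 in iPSC high, 4.20, 4.50 and 3.93 in iPSC low, 5.28, 5.45 and 4.84 in ESC high and 4.33, 3.93 and 4.15 in ESC low. It rose by 0.81 ± 0.13 (limma adjusted p = 0.00727), with all high arrays above all low arrays in both cell types, by a small margin in iPSC. Il11, which signals through gp130 with its own receptor, read 3.90, 4.15 and 4.75 in iPSC high, 3.22, 2.84 and 2.66 in iPSC low, 3.58, 3.19 and 2.70 in ESC high and 2.77, 3.26 and 2.55 in ESC low. For Il11 all low-fraction arrays and all ESC high arrays lay below the array medians, and these levels were not shown to be above background. Il11 rose by 0.83 ± 0.19 over both (limma adjusted p = 0.0359) and by 1.4 ± 0.26 in iPSC (limma adjusted p = 0.0409), while the ESC fractions overlapped. Leaving out single arrays kept the call over both cell types in 4 of 12 fits (limma adjusted p up to 0.0948), and the iPSC call was lost with the replicate block (limma adjusted p = 0.0511). The difference between the cell types in this contrast was 1.06 ± 0.37 and was not called (limma adjusted p = 0.9998).

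Of 3 other receptor chains measured, 0 were called between fractions or cell types. The largest of their values between fractions, -0.31 ± 0.16, belonged to Cntfr (limma adjusted p = 0.375), and Osmr stood at 0.17 ± 0.07 (limma adjusted p = 0.270).

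Of 8 JAK, STAT and adaptor genes measured, 3 were higher and 1 lower in iPSC, against 0.916% and 1.96% of all probe sets, and 0 were called between fractions. Jak1, Stat5a, Stat5b and Grb2 were not called in either comparison. Between fractions Ptpn11 (-0.25 ± 0.08, limma adjusted p = 0.136) and Jak2 (-0.25 ± 0.08, limma adjusted p = 0.148) had the lowest p. For Jak2 all high arrays lay below all low arrays in both cell types, as for 1.83% of probe sets. Gab1, a docking adaptor, was 0.35 ± 0.06 higher (limma adjusted p = 0.00713), the receptor kinase Tyk2 was 0.38 ± 0.07 higher (limma adjusted p = 0.0169) and Jak2 was 0.36 ± 0.08 higher (limma adjusted p = 0.0364). Ptpn11, the phosphatase SHP2 that couples receptors to the RAS and ERK route, was lower in iPSC, with a difference of -0.37 ± 0.08 (limma adjusted p = 0.0248). The iPSC and ESC arrays did not overlap for Gab1 and Tyk2, which were called in 12 of 12 fits that left out 1 array. Jak2 was called in 3 of those fits (limma adjusted p up to 0.0917) and not with the replicate number as a random block (limma adjusted p = 0.0627), and Ptpn11 was called in 4 (limma adjusted p up to 0.0688). In the low arrays alone Gab1 (limma adjusted p = 0.0719) and Tyk2 (limma adjusted p = 0.0916) were not called. The same held in the high arrays alone (limma adjusted p = 0.154 and 0.317). Jak2 and Ptpn11 were also not called in either fraction alone. The median over the 8 genes was 0.23, against 0.01 over all probe sets.

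Inhibitors and targets gave no calls without the block. Of 8 further JAK-STAT inhibitors 0 were called in either comparison, and Pias1 (0.21 ± 0.07, limma adjusted p = 0.162) and Socs1 (0.20 ± 0.08, limma adjusted p = 0.229) had the lowest p between cell types. Of 12 other STAT3 targets 0 were called. The immediate early gene Zfp36 stood at -0.53 ± 0.19 between fractions (limma adjusted p = 0.201, and 0.0118 with the replicate block, where it was called lower in the high fraction) and at 0.65 ± 0.19 between cell types (limma adjusted p = 0.106). Myc stood at 0.47 ± 0.13 between cell types (limma adjusted p = 0.0771) and Fos at -0.35 ± 0.29 between fractions (limma adjusted p = 0.614).

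Of 10 FGF and ERK cascade genes measured 0 were called. Map2k2, which encodes the kinase MEK2, stood at 0.21 ± 0.10 (limma adjusted p = 0.347) and the receptor Fgfr1 at -0.18 ± 0.10 (limma adjusted p = 0.403) between fractions. Between cell types the ligand Fgf4 stood at 0.19 ± 0.08 (limma adjusted p = 0.298) and Braf at 0.11 ± 0.07 (limma adjusted p = 0.556).

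Of 18 further ERK feedback and ERK-induced genes, 1 was called higher in the high fraction, against 1.60% of all probe sets. Between cell types 0 were called, against 0.916% of all probe sets called higher and 1.96% called lower. Phlda1, a pleckstrin homology-like domain gene, read 4.61, 4.48 and 4.65 in iPSC high, 4.40, 4.29 and 4.31 in iPSC low, 4.66, 4.53 and 4.66 in ESC high and 4.13, 4.27 and 3.93 in ESC low. All high arrays lay above all low arrays in both cell types, and the difference was 0.38 ± 0.07 (limma adjusted p = 0.0167). Of this list 13 of 18 genes lay above 0 between fractions, with a median of 0.12, against 50.9% and 0.00 over the table. The nuclear phosphatase Dusp2 stood at 0.25 ± 0.09 (limma adjusted p = 0.174), and its relative Dusp5, named because the replicate block called it, stood at 0.30 ± 0.12 (limma adjusted p = 0.241, and 0.0423 with the block).

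Egr1, an immediate early ERK target, had the largest iPSC minus ESC value of the list. It read 6.34, 5.47 and 6.75 in iPSC high, 6.70, 4.89 and 6.54 in iPSC low, 5.47, 5.03 and 5.42 in ESC high and 4.36, 5.07 and 4.19 in ESC low. The 2 iPSC arrays numbered 3 lay in or at the edge of the ESC range, and the difference of 1.19 ± 0.31 was not called (limma adjusted p = 0.0596). Il17rd, a membrane inhibitor of FGF signalling, stood at 0.29 ± 0.08 (limma adjusted p = 0.0738).

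**Figure D4:**
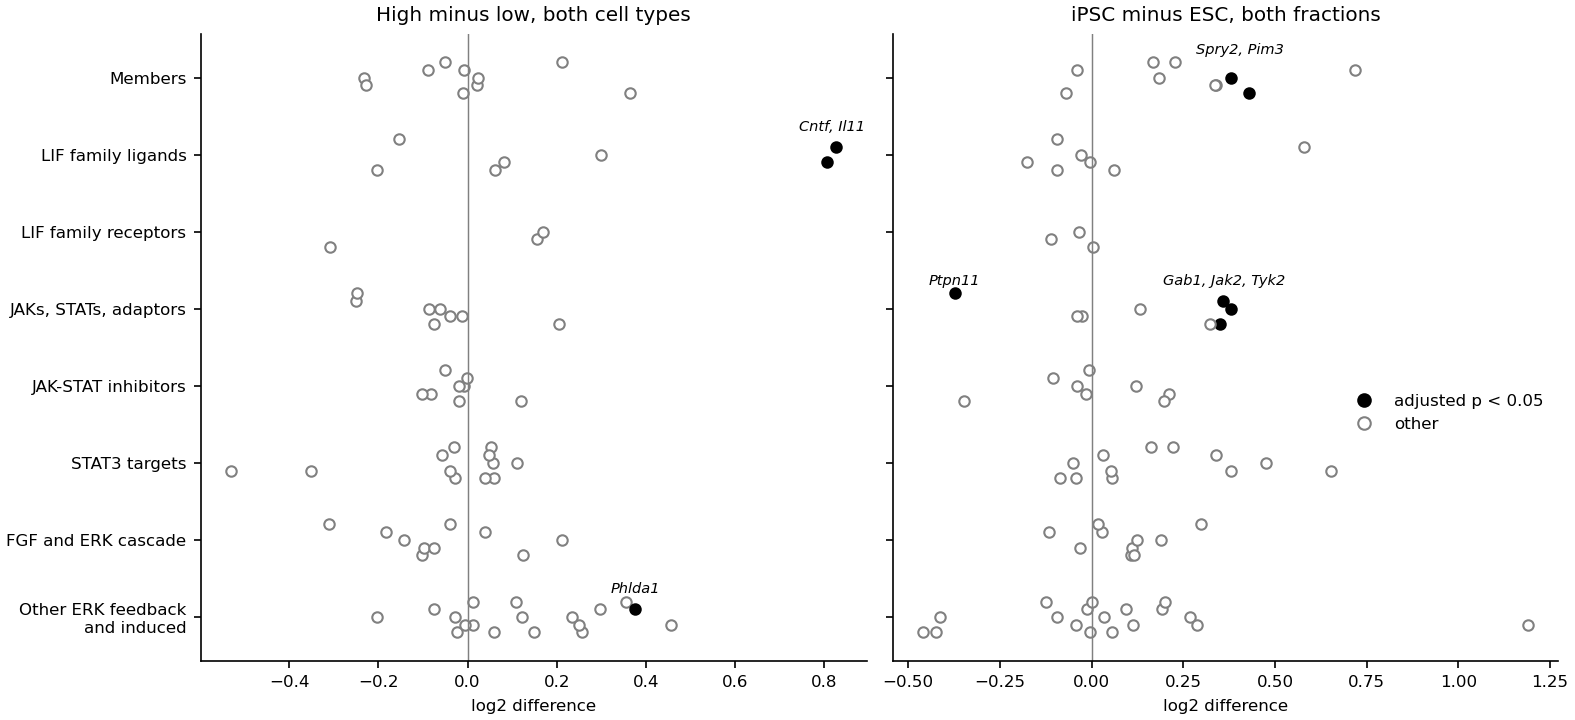
Each row is a gene list and each point a gene, with the log2 difference between fractions over both cell types on the left and between cell types over both fractions on the right. Filled points passed the threshold and are named: Cntf, Il11 and Phlda1 between fractions, and Pim3, Spry2, Gab1, Jak2, Tyk2 and Ptpn11 between cell types.

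The genes most like Pim3 over the 12 arrays, by the root-mean-square difference after centring each gene on its own mean, were Gab1 (0.084), Gbgt1 (0.088) and Msn (0.091), where Pim3's own root-mean-square deviation was 0.233. For Spry2, whose own deviation was 0.210, they were Tub (0.081), Amph (0.089) and Lars2 (0.089). These are descriptions over arrays that share the same 4 groups.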

How the data were processed

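Expression was measured on Affymetrix arrays in 12 samples, 3 in each group given by the labels. The deposited table holds log2 values, normalized by the authors with RMA, affy 1.36.1 and R 2.15.1, per the submitters' processing notes. The chip definition and genome build were not given in the sources used here. Probe intensities were not used. Probe sets were named from the platform annotation: of 25206, 23185 had 1 symbol and 2021 none.

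Tests used limma 3.58.1 in R 4.3.3, with 1 mean per group, trendless moderated variances and Benjamini-Hochberg adjustment over all probe sets. Figures used matplotlib 3.10.9 in Python 3.11.15. The fit was tested on simulated data. The number of arrays limits the precision.

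Residuals of high and low arrays of equal number correlated at 0.11 to 0.34 within a cell type (6 of 6 pairs above 0.1) and at -0.09 to 0.13 between cell types. The numbers were therefore taken as pairs within a cell type, inferred from these values alone, and the blocked value is given where it changes a call.

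The 10 members and all gene lists were chosen with earlier results of these data known. Named genes were the members, the genes of each pathway list past the threshold, the 2 of each list with the lowest p in the comparison of fractions over both cell types and of cell types, the 3 genes most like each called member, and fixed cell type markers. Some listed genes were not analysed here. Alternatives were a replicate block, median centring, a variance trend, a filter on dim probe sets, fits to 1 cell type and leaving out each array. Promoter windows were RefSeq's.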

Additional observations from a re-analysis of the deposited data

How the results depend on the processing

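Of 890 member values recomputed under the alternatives, 65 changed sign, none of them a called one. Between fractions over both cell types the number of members called was 0, but 1 with the replicate block (Dusp6) and 1 with the variance trend (Il6st). Between cell types it was 2, and 2 to 3 in fits that left out 1 array. Socs3 was added without ESC high replicate 2 and Spry4 without ESC high replicate 4. Socs3 was also called without both ESC arrays numbered 2. The count was 0 in the low arrays alone and 0 in the high arrays alone. These fits by fraction were added after seeing the data and compare 6 arrays each. With the replicate number as a random block Pim3 (limma adjusted p = 0.0139) and Spry2 (limma adjusted p = 0.0226) remained called. Leaving out each array in turn, their differences ranged between 0.39 and 0.46 and between 0.35 and 0.42, called in 12 of 12 fits. The block changed no other member call. Of the pathway genes, it added Zfp36 and Dusp5 between fractions over both cell types and Zfp36 in iPSC (limma adjusted p = 0.0455). It ended the calls between fractions in iPSC of Il11 (limma adjusted p = 0.0511) and of the blood marker Cd68 (limma adjusted p = 0.0746). As a random effect it ended the calls of Jak2 (limma adjusted p = 0.0627) and Klf2 (limma adjusted p = 0.0609) between cell types. Cntf, Phlda1, Gab1 and Tyk2 kept the calls over both groups in all fits that left out 1 array. Without both ESC arrays numbered 2, Phlda1 (limma adjusted p = 0.0829) and Tyk2 (limma adjusted p = 0.0615) were not called. Gab1 and Tyk2 were not called in the low arrays alone or in the high arrays alone.

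Over the whole table the calls between fractions were 90 in ESC, 138 in iPSC and 631 over both, and with the replicate block 177, 236 and 940. Leaving out single arrays gave 19 (without ESC low replicate 2 or ESC high replicate 2) to 111, 1 (without iPSC high replicate 4) to 208 and 380 (without ESC high replicate 3) to 695, and 394 (without iPSC high replicate 4) to 680 between cell types, where all arrays gave 724. The ESC count was 39 in ESC arrays alone and 0 without both ESC arrays numbered 2, where the count over both was 257. The random block gave 463 between cell types. The test of the fractions' contrast between cell types gave 0 calls by limma, 1100 at an unadjusted p under 0.05 and 1 with the block. The share of calls that were higher in the high fraction over both cell types was 63.9%, against 49.5% after median centring and 51.9% without dim probe sets, and in iPSC it was 63.8%, 45.2% and 53.2%. Causes were not tested. Arrays of 3 per group limit what can be seen in the widely spread members, Spry4 above all.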
